A study of Mus musculus with 90 samples.

Results

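When a mouse eats after its daytime fast, glucose and amino acids reach the liver and insulin rises in the portal blood. Insulin signalling through AKT keeps the transcription factor FOXO1 out of the nucleus, and FOXO1 is known to drive genes of glucose production and of the fasting response, often near binding sites of the glucocorticoid receptor (GR, encoded by Nr3c1). Insulin is also known to induce the lipogenic factor SREBP-1c in hepatocytes.

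The comparison described here was the response to a meal in mice that had received only vehicle: 4 fed and 4 unfed livers, 8 of the 90 samples of the series and 8 of its 54 RNA libraries. They were chosen by their labels, ZT14 fed PBS and ZT14 unfed PBS, with no measured value used. All were wild-type male C57BL/6 mice, of the C57BL/6N substrain per the study's methods, 10 weeks old, kept singly on chow under a 12-hour light phase and given food at night only for 4 days. Phosphate-buffered saline was injected intraperitoneally 30 minutes before ZT12 (the hour of lights off, counted from lights on), food was then given or withheld, and livers were taken at ZT14. Both groups therefore shared the injection and the restricted feeding, and the unfed mice had missed the start of 1 nightly meal. Each library came from the liver of 1 mouse and held poly(A) RNA. The question addressed was which liver genes respond to the first 2 hours of feeding in mice handled as vehicle controls.

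The values were RPKM (read counts scaled to transcript length in kilobases and to library size), and the steps between low values put the depth at 9.12 to 12.4 M reads a library. Replicate 4 of each group carried library numbers in a separate range. The log values of its 2 libraries correlated with those of the other 6 at r = 0.951 to 0.970 across genes, against 0.970 to 0.988 among those 6. The gene for apolipoprotein E, Apoe, stood at 10440 and 12450 RPKM in them against 3790 to 5952 RPKM in the other 6. The liver label was checked against 9 hepatocyte markers, whose summed level was 56200 to 73800 RPKM in fed and 61600 to 86700 RPKM in unfed livers. The defining markers Camp and Ly6g of neutrophils, Prss1, Cpa1, Ctrb1 and Amy2a5 of pancreatic acini and Adipoq, Plin1 and Lep of adipocytes were listed at 0 in all 8 libraries. A listed 0 need not mean absence, since Hmgcs1, a cholesterol synthesis gene, was also at 0 in every library. The 6 neutrophil markers together, of which 2 were tested, summed to 1.21 to 7.61 RPKM in fed and 0.0 to 2.49 RPKM in unfed livers. The 9 acinar markers, with 2 tested, summed to 7.6 to 12.8 and 8.14 to 11.9 RPKM, and the 8 of adipocytes and muscle, with 0 tested, to at most 0.302 and 0.327 RPKM. None of these lists held a call.

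Feeding changed 352 of 11251 genes tested (3.13%; limma on log2(RPKM + 0.5), Benjamini-Hochberg adjusted p under 0.05), of which 287 were higher (2.55%) and 65 lower (0.578%) in fed livers. The median fold among them was 1.58 for the rises and 1.69 for the falls. Of the rises 36 reached 2-fold and 186 reached 1.5-fold, and of the falls 22 and 49. In 1523 genes (13.5% of those tested) the 4 fed and 4 unfed livers did not overlap, and 330 of the 352 were among these. The direction was the same in the means of replicates 1 to 3 and in the replicate 4 pair for 347 of the 352. The spread was estimated over all 20 libraries of injected mice, among them fed mice given dexamethasone, the insulin receptor antagonist S961 or both. A fit of the 8 vehicle libraries alone gave 275 calls (2.43%), 230 higher and 45 lower, of which 206 were among the 352.

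The split between rises and falls depended on the scaling of the libraries. The median of all genes was 0.10 higher in fed livers on the log2 scale, and it was 0.00 after median-ratio scaling. Rises made up 81.5% of the calls with the values as deposited and 51.6% after that scaling, when 221 genes were called (1.96%), 114 higher and 107 lower. All 65 falls and 113 of the 287 rises stayed called, and none changed sign.

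**Figure D1:**
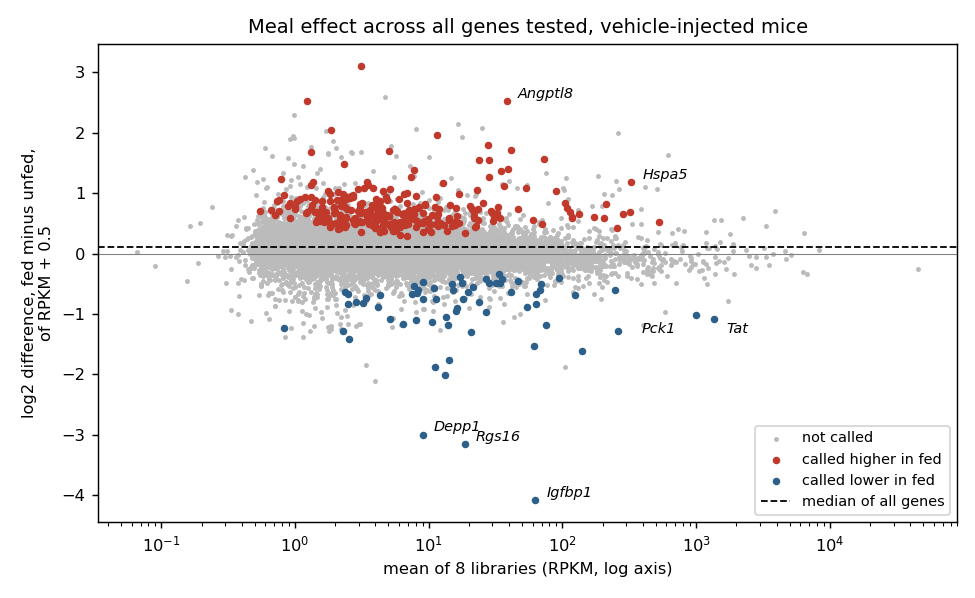
Log2 difference between fed and unfed vehicle-injected livers (vertical axis, log2 of RPKM + 0.5) against mean level over the 8 libraries (horizontal axis, RPKM, log scale), 1 point a gene, with called rises in red, called falls in blue and the median of all genes (0.10) as a dashed line. Igfbp1, at -4.08, lies farthest below the line, and most called rises lie under 1.

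The number of calls also depended on single libraries. Without fed replicate 1, 2 or 3 it was 157, 124 or 191, and without unfed replicate 1, 2 or 3 it was 123, 86 or 121. Leaving out replicate 4 left it near the full count, with 394 calls without the fed and 319 without the unfed library of that number. A fit of replicates 1 to 3 alone, taken from all 5 groups of injected mice, gave 716 calls (6.38%), 547 higher and 169 lower. Of these, 301 were among the 352. A term for replicate 4 in the model of all libraries gave 1036 (9.21%), which held all 352. The fits without 1 library, here and below, held no such term.

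The deepest fall was that of Igfbp1 (NM_008341), a secreted protein that binds insulin-like growth factors and a classic gene repressed by insulin. Its level in the 4 fed livers, replicates 1 to 4, was 3.69, 3.28, 6.80 and 11.3 RPKM, and in the 4 unfed livers 169.5, 183, 82.2 and 42.8 RPKM. Every unfed liver was well above every fed liver, with the narrowest gap in replicate 4. The fall was 16.9-fold (log2 difference -4.08, SE 0.56, adjusted p = 0.00288), and the call was kept in all 8 fits that left out 1 library.

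Rgs16 (NM_011267), a regulator that speeds the shut-off of G protein signalling, read 1.42, 4.72, 9.15 and 1.21 RPKM in fed and 44.2, 42.3, 21.2 and 24.5 RPKM in unfed livers. The groups lay apart in every mouse, and the fall was 8.90-fold (log2 difference -3.15, SE 0.53, adjusted p = 0.00539). Depp1 (NM_001166580), an autophagy-linked gene known as a FOXO target, read 1.42, 0.669, 2.01 and 1.74 RPKM in fed and 25.5, 21.9, 13.4 and 5.79 RPKM in unfed livers. Here again no fed liver reached the lowest unfed liver, which was replicate 4, and the fall was 7.97-fold (log2 difference -2.99, SE 0.41, adjusted p = 0.00288).

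Among 19 genes tested of insulin signalling and of its FOXO1 arm, Igfbp1, Irs2 and the cell-cycle brake Ccng2 fell. None rose and 16 did not pass. The shares over all genes tested were 0.578% for falls and 2.55% for rises. In replicates 1 to 3 alone 3 fell and 1 rose, Pik3r1, the regulatory subunit of PI3 kinase (log2 difference 0.81, adjusted p = 0.00699, against 0.0513 in the fit of all 20 libraries). Replicates 1 to 3 alone gave 547 rises and 169 falls among 11230 genes (6.38% called). Irs2 (NM_001081212), the adaptor that links the insulin receptor to downstream kinases, read 0.548, 0.922, 1.15 and 2.22 RPKM in fed and 3.86, 4.97, 2.97 and 3.52 RPKM in unfed livers. The groups did not overlap and the log2 difference was -1.41 (SE 0.35, adjusted p = 0.035), but the call held only without fed replicate 4 and was lost without any of the other 7 libraries, at an adjusted p of up to 0.112. Ccng2 read 1.96 to 3.78 RPKM in fed and 5.25 to 8.11 RPKM in unfed livers (log2 difference -1.08, SE 0.18, adjusted p = 0.00555), a fall that was kept without each library. Irs1, the sister adaptor, was at 2.41 ± 0.65 in fed and 2.30 ± 0.15 RPKM in unfed livers (SD, n = 4) with a log2 difference of 0.03 (SE 0.16, adjusted p = 0.951), whose sign changed under median-ratio scaling (-0.06).

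Among gluconeogenic enzymes Pck1 and G6pc fell. Pck1 (NM_011044), which makes phosphoenolpyruvate from oxaloacetate, read 579, 643, 690.3 and 731 RPKM in fed and 1468, 1472, 1319 and 1121 RPKM in unfed livers. The fall was 2.03-fold with a clear gap between the groups (log2 difference -1.02, SE 0.19, adjusted p = 0.00794) and was called without each single library. G6pc (NM_008061), the phosphatase that releases free glucose, read 72.0, 29.99, 80.6 and 101 RPKM in fed and 266, 279, 194 and 107 RPKM in unfed livers. Replicate 4 hardly differed between fed and unfed (log2 difference -0.08 in that pair). The fall was 3.04-fold (log2 difference -1.60, SE 0.33, adjusted p = 0.0139 in the fit of all 20 libraries). The call was lost without unfed replicate 1 or 2, at an adjusted p of up to 0.064, and in a fit of the 8 vehicle libraries alone. These 2 were the only calls among 10 gluconeogenesis genes tested, where 0.578% of all genes tested fell. The median log2 difference of the 10 was -0.32 against 0.10 over all genes. The coactivator Ppargc1a had non-overlapping groups at 1.81 to 2.34 in fed and 2.79 to 3.35 RPKM in unfed livers without passing the test (adjusted p = 0.133).

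Targets of the glucocorticoid receptor mostly leaned lower in fed livers. Of 20 tested, 3 fell, 1 rose and 16 did not pass. Their median log2 difference was -0.33 against 0.10 over all genes, and only 3 of the 20 had a positive difference. Over all genes tested 0.578% fell and 2.55% rose. Tat (NM_146214), tyrosine aminotransferase, read 796, 729.9, 933 and 1040 RPKM in fed and 1929, 1950, 1720 and 1755 RPKM in unfed livers. All unfed values were above all fed values and the fall was 2.12-fold (log2 difference -1.08, SE 0.22, adjusted p = 0.0138), lost without fed replicate 2 or unfed replicate 2 at an adjusted p of up to 0.0544. Ddit4, an inhibitor of mTORC1, fell 3.66-fold, from 12.4 to 24.2 RPKM in unfed to 2.61 to 6.13 RPKM in fed livers (log2 difference -1.87, SE 0.29, adjusted p = 0.00419). Tsc22d3, which encodes the anti-inflammatory protein GILZ, was at 36.3 to 55.1 in fed and 79.7 to 83.7 RPKM in unfed livers (log2 difference -0.84, SE 0.21, adjusted p = 0.0366), and its call held only without fed replicate 4, reaching 0.119 otherwise. Gadd45a, a stress and growth-arrest gene, went the other way at 2.08, 5.75, 4.06 and 3.03 RPKM in fed against 0.699 to 1.28 RPKM in unfed livers (log2 difference 1.49, SE 0.26, adjusted p = 0.00674). The cochaperone Fkbp5 overlapped between the groups at 40.2 to 83.7 and 68.5 to 71.7 RPKM (adjusted p = 0.441). The receptor gene Nr3c1 itself did not pass, at 19.2 ± 5.5 in fed and 13.9 ± 1.0 RPKM in unfed livers (SD, n = 4; adjusted p = 0.29).

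**Figure D2:**
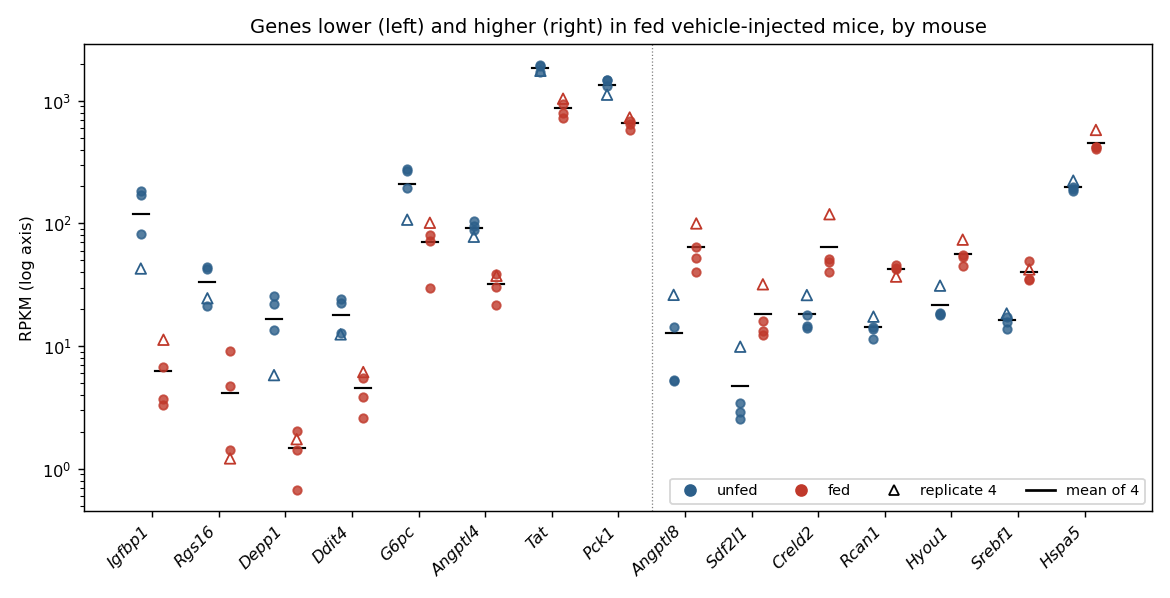
Level in every liver (RPKM, log axis) of 8 genes lower and 7 genes higher in fed vehicle-injected mice, with unfed livers in blue, fed livers in red, triangles for replicate 4 and a bar for the mean of 4. The colours do not overlap in any of these genes. In all falls shown but Rgs16 and Tat the unfed triangle lies lowest of its group.

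The remaining large falls held several roles. Angptl4, a secreted inhibitor of lipoprotein lipase and a known PPAR and fasting target, read 30.5, 21.7, 38.8 and 37.4 RPKM in fed and 87.6, 105, 95.9 and 77.8 RPKM in unfed livers. This 2.87-fold fall (log2 difference -1.52, SE 0.28, adjusted p = 0.00794) was the only call among 24 genes of fatty acid oxidation and ketogenesis. Lpin2, a phosphatidate phosphatase of triglyceride synthesis, read 32.1 to 57.5 in fed and 68.3 to 121 RPKM in unfed livers (log2 difference -1.18, SE 0.19, adjusted p = 0.00419). Plin5, a lipid droplet coat protein, was at 27.3 to 37.4 and 49.1 to 51.5 RPKM (log2 difference -0.64, SE 0.12, adjusted p = 0.00712), and these 2 were the only calls among 17 genes of triglyceride metabolism. Falls made up 0.578% of all genes tested. Slc25a47, a mitochondrial carrier of the liver, fell from 304 to 398 RPKM in unfed to 115 to 206 RPKM in fed livers (log2 difference -1.29, SE 0.23, adjusted p = 0.00674).

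Arl4d (a small GTPase), Ip6k2 (an inositol phosphate kinase), Sesn2 (a leucine-sensing inhibitor of mTORC1) and Erbb3 (a neuregulin receptor) completed the 12 largest falls, with log2 differences of -2.01, -1.76, -1.28 and -1.18. Adjusted p was 0.00891, 0.00288, 0.00875 and 0.00419. Sesn2, at 0.672 to 1.64 in fed and 3.08 to 3.82 RPKM in unfed livers, was the only call among 12 genes of the ATF4 response, with 3.13% of all genes called. Of the 12 largest falls, 10 were called in all 8 fits without 1 library, and the exceptions were G6pc and Irs2. All 12 were called after median-ratio scaling and in replicates 1 to 3 alone.

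The falls were read against the positions of GR and FOXO1 binding, which the same study had measured by ChIP-seq in unfed livers of uninjected mice. The deposited lists held 10446 GR and 8546 FOXO1 peaks, 180 bases wide each. Of the 65 genes that fell, 56 (86.2%, exact 95% binomial interval 75.3 to 93.5) had a GR peak within 50 kb of their start and 62 (95.4%, 87.1 to 99.0) had a FOXO1 peak. Among 285 of the genes that rose, the shares were 47.4% (41.5 to 53.3) and 42.8% (37.0 to 48.8), and among 10530 genes not called they were 51.2% and 54.2%. The falling genes were also higher expressed, with a median of 16.3 RPKM against 5.43 RPKM over all genes tested. Genes not called with at least that mean level had a GR peak in 68.5% and a FOXO1 peak in 68.6% (66.5 to 70.3 and 66.7 to 70.5), below the intervals of the falling genes. These shares are a description: no test was made on them, the intervals cover counting error only, and neighbouring genes can share a peak. Both peak lists came from unfed livers of uninjected mice only, so the change of binding with the meal was not tested here.

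**Figure D3:**
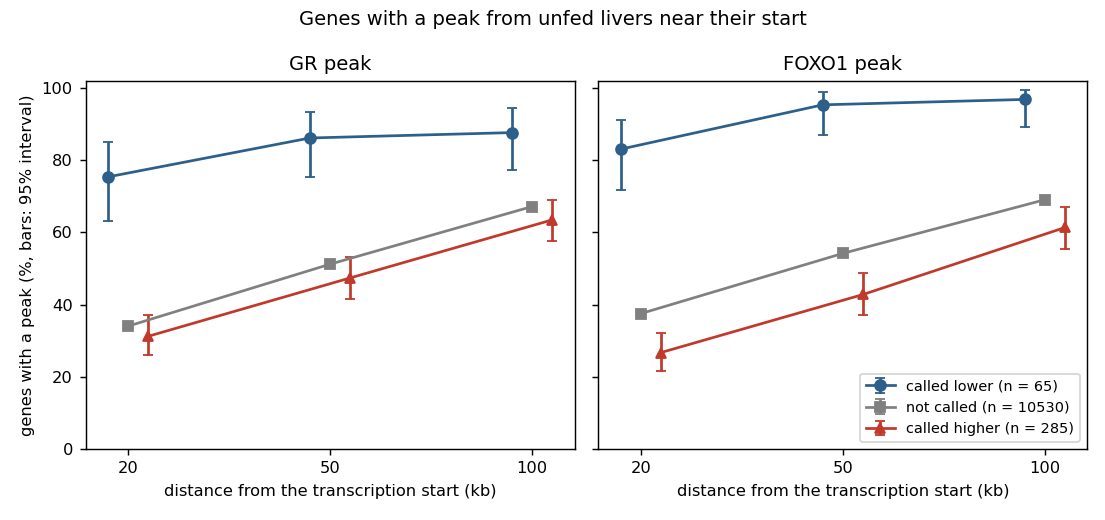
Share of genes (%, with exact 95% binomial intervals) that have a GR peak (left) or a FOXO1 peak (right) from unfed livers of uninjected mice within 20, 50 or 100 kb of their start, for 65 genes that fell, 285 that rose and 10530 not called. At each distance the falling genes have the highest share, 83.1% for FOXO1 at 20 kb against 26.7% in rising genes.

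The peaks nearest to the starts of Igfbp1, Pck1 and Lpin2 are printed as examples, chosen after their motif matches were seen. Of the 65 falls, 19 were called without each single library, and all 19 had a peak of both factors within 50 kb. Peaks of both factors lay within 50 kb of 33.0% of the 285 rises and 40.1% of the 10530 genes not called. The nearest GR peak held the glucocorticoid motif given below in 10 of the 19 and the nearest FOXO1 peak the forkhead motif in 3. Those of Ddit4, Depp1, Rgs16, Sesn2 and Ccng2, also among the 19, held neither. Of all 65 falls, 55 had a peak of both factors within 50 kb. In these 55 the nearest GR peak held the glucocorticoid motif in 23 and the nearest FOXO1 peak the forkhead motif in 8. The printed peaks are in mm9, on the plus strand, and the capitals mark matches on either strand to a glucocorticoid response element (ACANNNTGT) or to a forkhead motif (TGTTTAC). The first motif occurred in 20.3% of GR peaks, 12.7% of FOXO1 peaks and 5.99% of DNase-accessible sites (168 bases wide), and the second in 7.29%, 18.8% and 4.36%. The GR peak upstream of Igfbp1 (chr11:7094640-7094819, between protein-coding genes, at -3056 bases from the start) overlaps a FOXO1 peak and holds 1 match. The GR peak of Pck1 (chr2:172978189-172978368, between protein-coding genes, at -271 bases) also overlaps a FOXO1 peak. Lpin2 has a GR peak (chr17:71551542-71551721, at -2363 bases) and a FOXO1 peak (chr17:71553718-71553897, at -187 bases), which both lie in an intron of an annotated Lpin2 transcript.
Igfbp1 GR peak: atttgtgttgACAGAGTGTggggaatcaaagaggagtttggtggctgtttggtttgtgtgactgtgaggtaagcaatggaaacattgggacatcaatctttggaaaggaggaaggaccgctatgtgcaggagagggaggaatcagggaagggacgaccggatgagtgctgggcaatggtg
Pck1 GR peak: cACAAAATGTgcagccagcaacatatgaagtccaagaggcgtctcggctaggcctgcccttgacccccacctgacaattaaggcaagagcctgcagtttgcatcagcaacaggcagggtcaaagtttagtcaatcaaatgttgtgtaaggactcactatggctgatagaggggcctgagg
Lpin2 GR peak: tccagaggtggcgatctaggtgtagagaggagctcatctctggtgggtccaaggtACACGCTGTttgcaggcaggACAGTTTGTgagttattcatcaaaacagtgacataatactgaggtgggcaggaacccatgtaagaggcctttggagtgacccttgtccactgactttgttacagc
Lpin2 FOXO1 peak: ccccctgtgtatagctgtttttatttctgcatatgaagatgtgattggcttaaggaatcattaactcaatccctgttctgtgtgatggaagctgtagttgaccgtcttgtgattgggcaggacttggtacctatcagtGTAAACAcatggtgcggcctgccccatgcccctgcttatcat

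A match is a run of letters only. The Igfbp1 and Pck1 FOXO1 peaks held no forkhead match of these letters, and the Lpin2 FOXO1 peak held 1.

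Among the rises, Angptl8 (NM_001080940) led the genes of metabolism. Angptl8 is a secreted regulator of lipoprotein lipase that is known to be induced by feeding and insulin. It read 52.2, 40.3, 64.2 and 99.9 RPKM in fed and 5.23, 5.24, 14.4 and 26.1 RPKM in unfed livers. Both groups ran high in replicate 4 without overlapping, and the rise was 5.72-fold (log2 difference 2.52, SE 0.44, adjusted p = 0.00607), kept without each single library.

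Srebf1 (NM_001313979), the gene of SREBP-1, read 34.3, 35.2, 49.6 and 42.1 RPKM in fed and 17.4, 13.8, 15.7 and 18.4 RPKM in unfed livers. The groups lay apart and the rise was 2.41-fold (log2 difference 1.27, SE 0.22, adjusted p = 0.00607), called without each single library. Its target Fasn, fatty acid synthase, moved less, at 33.9, 32.8, 40.5 and 36.5 RPKM in fed and 29.3, 20.2, 22.7 and 26.7 RPKM in unfed livers. The log2 difference of Fasn was 0.54 (SE 0.13, adjusted p = 0.0281), with a p of 0.0927 after median-ratio scaling and of up to 0.104 without fed replicate 1, 2 or 3 or unfed replicate 2 or 3.

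Of 17 genes of fatty acid synthesis tested these 2 rose and 1 fell, against 2.55% and 0.578% of all genes tested. The one that fell was Acss2, which makes acetyl-CoA from acetate, at 35.95, 31.5, 45.8 and 37.3 RPKM in fed and 91.8, 78.7, 68.7 and 45.9 RPKM in unfed livers (log2 difference -0.88, SE 0.21, adjusted p = 0.0313), and the call was lost without fed replicate 1 or 2 or unfed replicate 1, 2 or 3 at up to 0.109. The desaturase gene Scd1 overlapped between groups at 644 to 1628 in fed and 1161 to 2764 RPKM in unfed livers (log2 difference -0.78, adjusted p = 0.148), and was called lower in replicates 1 to 3 alone (-1.21, adjusted p = 0.0158). Insig2, which holds SREBP in the endoplasmic reticulum, overlapped as well, at 65.1, 35.6, 37.9 and 32.6 RPKM in fed and 56.9 to 78.0 RPKM in unfed livers (adjusted p = 0.118). Its overlap came from fed replicate 1 alone, without which the gene was called lower (log2 difference -0.89, adjusted p = 0.0498).

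In the cholesterol pathway 2 of 22 genes tested rose, none fell and 20 did not pass, where 2.55% of all genes tested rose. Mvd, mevalonate diphosphate decarboxylase, rose 2.13-fold from 1.89 to 3.28 RPKM to 4.59 to 6.02 RPKM (log2 difference 1.09, SE 0.19, adjusted p = 0.00598). Sqle, squalene epoxidase, read 39.1, 33.7, 35.9 and 17.9 RPKM in fed and 16.4, 12.3, 13.4 and 16.1 RPKM in unfed livers (log2 difference 1.04, SE 0.23, adjusted p = 0.0212), with the smallest gap in replicate 4. Its call was lost without fed replicate 1, 2 or 3 or unfed replicate 2 or 3 at up to 0.0776. In replicates 1 to 3 alone, and without fed replicate 4 alone, 7 members rose, against 1 without fed replicate 1, 2 or 3 or unfed replicate 2 or 3, and both calls were kept after median-ratio scaling. Replicates 1 to 3 alone gave calls in 6.38% of all genes, and the fit without fed replicate 4 in 3.51%. The share was 1.39%, 1.10% or 1.70% without fed replicate 1, 2 or 3. Without unfed replicate 2 or 3 it was 0.764% or 1.08%. Hmgcs1, listed at 0, gave no value.

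The other large rises were of mixed kinds. Rcan1, an inhibitor of the phosphatase calcineurin, read 42.9, 45.8, 43.4 and 36.8 RPKM in fed and 11.5, 13.8, 14.4 and 17.4 RPKM in unfed livers (log2 difference 1.54, SE 0.22, adjusted p = 0.00289). Ces4a, a carboxylesterase, was at 1.93 to 4.71 in fed and 0.161 to 0.722 RPKM in unfed livers (log2 difference 2.05, SE 0.34, adjusted p = 0.00497). Serpina9, a serpin, and Gm16551, a non-coding transcript, had log2 differences of 1.68 and 1.70 (adjusted p = 0.0114 and 0.00789). The short RNAs Snord34 (66 bases) and Mir7068 (74 bases) had log2 differences of 3.11 and 2.52, but these rested on 2 to 6 reads a fed library and 0 or 1 an unfed library, and on 1 to 3 reads and 0. Of the 11 largest rises reported, 6 were called in all 8 fits without 1 library: Angptl8, Ces4a, Gm16551, Serpina9, Rcan1 and Gadd45a. Mir7068 was called in none of them and Snord34 in 2, and Mir7068 was not called after median-ratio scaling (adjusted p = 0.0732).

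Genes of protein folding in the endoplasmic reticulum (ER) held the most rises of the 20 gene lists. Newly made secretory proteins, which the liver exports in bulk, are folded there by chaperones, and their genes are known to be induced by the unfolded protein response through ATF6 and XBP1. Of 20 listed genes, all tested, 12 rose, none fell and 8 did not pass. Over all genes tested 2.55% rose and 0.578% fell. The median log2 difference of the 20 was 0.80 against 0.10 over all genes.

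Hspa5 (NM_001163434), the ER chaperone BiP, read 408, 416, 421 and 578 RPKM in fed and 199, 191, 185 and 223 RPKM in unfed livers. Every fed liver was above every unfed liver, and the rise was 2.26-fold (log2 difference 1.18, SE 0.23, adjusted p = 0.0118), kept without each library and after median-ratio scaling (0.019). Hyou1, a nucleotide exchange factor for BiP, read 44.8, 55.2, 53.4 and 73.7 RPKM in fed and 18.6, 18.0, 18.4 and 31.1 RPKM in unfed livers. Its log2 difference was 1.40 (SE 0.28, adjusted p = 0.0127), lost without unfed replicate 2 at 0.0534.

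Sdf2l1, a partner of the chaperone cycle, read 12.3, 16.1, 13.4 and 31.9 RPKM in fed and 2.55, 3.41, 2.92 and 9.87 RPKM in unfed livers. The rise was 3.88-fold (log2 difference 1.96, SE 0.44, adjusted p = 0.0244) and lost its call without fed replicate 2 or unfed replicate 1, 2 or 3 at up to 0.0845. Creld2, a disulfide isomerase of the ER, read 40.2, 48.4, 50.9 and 119 RPKM in fed and 14.7, 17.8, 13.9 and 26.0 RPKM in unfed livers (log2 difference 1.71, SE 0.40, adjusted p = 0.0281). It kept its call only without fed replicate 1 or unfed replicate 4 and reached 0.0879 otherwise. In both genes replicate 4 was the highest mouse of each group.

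Manf, Pdia4, Calr, Dnajb11, Dnajb9, Hsp90b1, Pdia3 and Sel1l made up the other rises, with log2 differences of 0.59 to 1.36. They encode a secreted neurotrophic factor of the ER, protein disulfide isomerases, lectin and HSP90 chaperones, cochaperones and a subunit of ER-associated degradation. Hsp90b1 read 386, 398, 374 and 430.4 RPKM in fed and 259, 239.9, 243 and 237 RPKM in unfed livers, a log2 difference of 0.70 (SE 0.18, adjusted p = 0.0442). The groups were well apart, yet the call was lost without any 1 library, at 0.0752 to 0.113. Calr overlapped, with fed livers at 214 to 391.7 and unfed livers at 121 to 220.5 RPKM (log2 difference 0.82, adjusted p = 0.0472). After median-ratio scaling Manf and Pdia3 were called (0.0483 and 0.0471), and Hsp90b1, Calr, Pdia4, Dnajb11, Dnajb9 and Sel1l were not (0.0569 to 0.0974). The 7 rises other than Hsp90b1 each lost their call without fed replicate 2 or unfed replicate 1, 2 or 3, at up to 0.144. Among those that did not pass, Xbp1 was at 143, 199, 156 and 67.2 RPKM in fed and 50.2 to 68.6 RPKM in unfed livers (adjusted p = 0.118), with fed replicate 4 inside the unfed range and a call in replicates 1 to 3 alone (adjusted p = 0.00898), and Herpud1 was the only member with a negative difference (-0.18, adjusted p = 0.698).

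The group count was sensitive to the libraries. It was 17 in replicates 1 to 3 alone, 19 with a term for replicate 4 and 6 after median-ratio scaling, with no member falling in any of these. Those fits called 6.38%, 9.21% and 1.96% of all genes, against 3.13% in the fit of all 20 libraries. Without fed replicate 1, 2, 3 or 4 the ER count was 8, 2, 6 or 5, and without unfed replicate 1, 2, 3 or 4 it was 2, 1, 2 or 11. The median log2 difference stayed at 0.68 after median-ratio scaling.

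**Figure D4:**
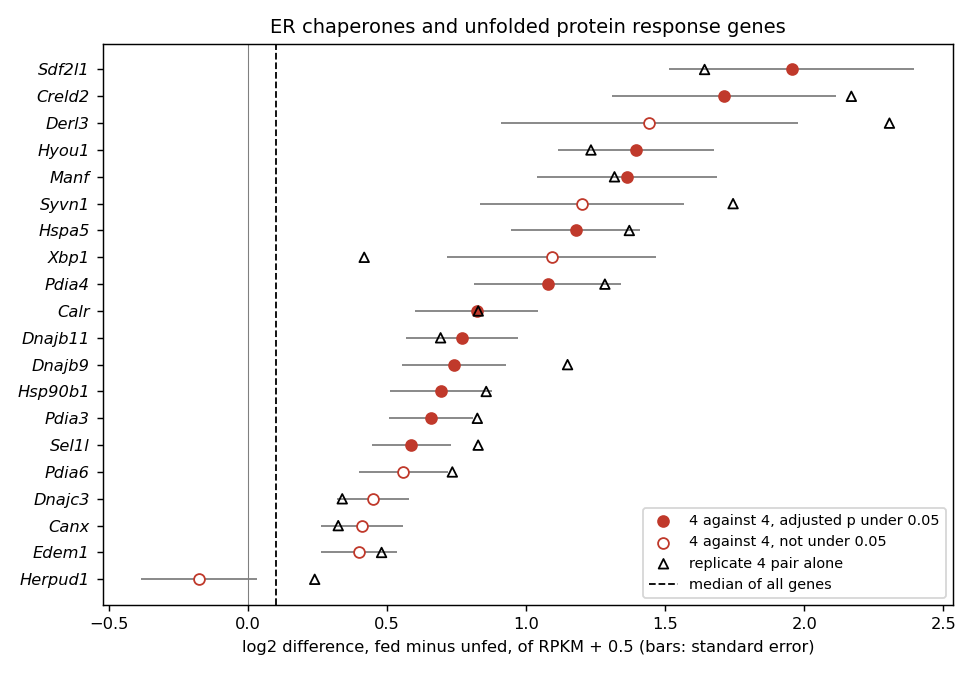
Log2 difference between fed and unfed vehicle-injected livers (log2 of RPKM + 0.5) for the 20 ER folding genes. Points compare 4 against 4 livers, with standard error bars from the fit of all 20 libraries of injected mice. Points are filled where the adjusted p of that fit was under 0.05, and triangles give the replicate 4 pair alone. All members but Herpud1 lie to the right of the median of all genes (dashed line, 0.10).

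The start regions of 4 of the called genes are printed as examples that hold an element known to be shared by ER chaperone promoters. They are RefSeq sequences in GRCm38.p6, 300 bases that begin before and end just after the start, written in the direction of the gene. The capitals mark the ER stress response element (CCAAT, any 9 bases, then CCACG) or, in Dnajb11, its second form (ATTGG, any base, then CCACG), on either strand. The first occurred in 39 of 32544 mouse promoters of this length (0.12%) and in 9 of the 18 ER genes with a promoter in the table, among them Hspa5, Hsp90b1 and Creld2. The second occurred in 0.0369% of promoters. Together with the XBP1 element TGACGTGG, 11 of the 18 (61.1%) held at least 1 of these against 0.83% of all promoters. Hspa5 is at chr2:34771840-34772139 on the plus strand, Hsp90b1 at chr10:86705395-86705694 on the minus strand, Creld2 at chr15:88819396-88819695 on the plus strand and Dnajb11 at chr16:22857595-22857894 on the plus strand.
Hspa5: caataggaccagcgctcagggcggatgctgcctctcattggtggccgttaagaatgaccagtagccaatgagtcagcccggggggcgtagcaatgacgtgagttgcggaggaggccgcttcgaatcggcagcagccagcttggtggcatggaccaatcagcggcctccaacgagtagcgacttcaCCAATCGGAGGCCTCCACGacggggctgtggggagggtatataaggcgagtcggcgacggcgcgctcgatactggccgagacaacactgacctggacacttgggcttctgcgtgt
Hsp90b1: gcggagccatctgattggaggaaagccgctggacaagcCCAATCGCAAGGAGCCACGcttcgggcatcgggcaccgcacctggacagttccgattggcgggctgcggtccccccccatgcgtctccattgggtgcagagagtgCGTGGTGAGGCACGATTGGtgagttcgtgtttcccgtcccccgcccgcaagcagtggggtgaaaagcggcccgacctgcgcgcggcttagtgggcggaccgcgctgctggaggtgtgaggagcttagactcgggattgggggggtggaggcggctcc
Creld2: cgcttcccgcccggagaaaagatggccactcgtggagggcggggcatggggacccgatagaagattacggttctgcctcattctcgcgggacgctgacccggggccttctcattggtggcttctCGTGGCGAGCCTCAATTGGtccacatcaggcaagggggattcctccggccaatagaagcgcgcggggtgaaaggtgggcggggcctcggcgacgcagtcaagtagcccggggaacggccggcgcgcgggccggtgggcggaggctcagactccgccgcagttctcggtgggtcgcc
Dnajb11: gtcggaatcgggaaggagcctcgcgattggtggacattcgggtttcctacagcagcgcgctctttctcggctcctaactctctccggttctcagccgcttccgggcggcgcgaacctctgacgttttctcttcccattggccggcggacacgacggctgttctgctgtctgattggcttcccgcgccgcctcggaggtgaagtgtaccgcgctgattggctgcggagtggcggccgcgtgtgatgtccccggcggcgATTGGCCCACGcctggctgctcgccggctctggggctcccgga

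Hsp90b1 holds 2 matches and the other 3 hold 1. The share includes members that did not pass the test. Dnajc3, Pdia6, Canx, Syvn1 and Derl3 hold the first element, and Herpud1, the only member with a negative difference, holds the second. The called members with a match were Hspa5, Hsp90b1, Calr, Creld2 and Dnajb11. The called members Sdf2l1, Pdia3, Pdia4, Dnajb9 and Sel1l, and Xbp1 and Edem1, held none of these letters in this window. A match therefore did not separate the called members from the others.

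Genes that build ribosomes also rose. Of 25 tested, 6 rose (Polr1b, Nop56, Nop58, Nop2, Mybbp1a and Ppan), none fell and 19 did not pass, with a median log2 difference of 0.41. Over all genes tested 2.55% rose. Ppan, needed for large-subunit assembly, read 8.67, 9.22, 10.1 and 9.03 RPKM in fed and 3.58, 3.66, 4.22 and 6.51 RPKM in unfed livers (log2 difference 1.00, SE 0.17, adjusted p = 0.00526). Nop2, a methyltransferase of 28S ribosomal RNA, was at 10.4 to 12.99 in fed and 5.86 to 7.16 RPKM in unfed livers (log2 difference 0.80, SE 0.12, adjusted p = 0.00419). Both were called without each library. The other 4, which encode a subunit of RNA polymerase I (Polr1b), snoRNP core proteins (Nop56 and Nop58) and a nucleolar MYB-binding protein (Mybbp1a), had log2 differences of 0.59 to 0.80 and lost their calls without unfed replicate 1, 2 or 3, at up to 0.109. The count of 6 went to 3, 4 or 3 without fed replicate 1, 2 or 3, to 2 without unfed replicate 1, 2 or 3 and to 3 without unfed replicate 4. It was 10 in replicates 1 to 3 alone and 11 with a term for replicate 4, fits that called 6.38% and 9.21% of all genes. After median-ratio scaling Polr1b, Nop56 and Nop58 were not called (0.0507, 0.0862 and 0.0603) and the median was 0.31.

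Heat shock genes had a median log2 difference of 0.47 over 18 members with no call in the fit of all 20 libraries. There were 2 rises in replicates 1 to 3 alone (Dnaja1 and Bag3), 3 with the 8 vehicle libraries alone and 5 with a term for replicate 4, and none after median-ratio scaling. Those fits called 6.38%, 2.43%, 9.21% and 1.96% of all genes. Hsph1, a cochaperone of HSP70, came nearest at 64.4, 75.8, 41.1 and 69.95 RPKM in fed and 22.9 to 33.99 RPKM in unfed livers (log2 difference 1.08, adjusted p = 0.0751). Hspb1 overlapped at 4.00 to 11.0 and 1.88 to 5.06 RPKM (adjusted p = 0.326).

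Of 21 secreted hormones and binding proteins, 2 rose, both subunits of the activin family, against 2.55% of all genes tested. Inhbc read 23.1, 27.98, 26.7 and 28.3 RPKM in fed and 15.5, 16.7, 18.5 and 19.3 RPKM in unfed livers (log2 difference 0.59, SE 0.12, adjusted p = 0.0127), lost only without unfed replicate 2 at 0.0518. Inhba, at 2.11, 1.85, 1.72 and 0.732 RPKM in fed and 0.433 to 0.794 RPKM in unfed livers, overlapped through fed replicate 4 (log2 difference 0.90, adjusted p = 0.0373). Its call was lost without fed replicate 1, 2 or 3 or unfed replicate 1, 2 or 3, at up to 0.116, and after median-ratio scaling (0.0621).

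Among Kruppel-like transcription factors 1 of 11 rose and 1 fell, against 2.55% and 0.578% of all genes tested. Klf10 was at 5.38 to 9.14 in fed and 3.89 to 4.87 RPKM in unfed livers (log2 difference 0.70, adjusted p = 0.0378, and 0.0878 after median-ratio scaling). Klf15, a regulator of amino acid and glucose metabolism, read 46.0, 43.8, 44.4 and 64.1 RPKM in fed and 79.0, 78.9, 72.3 and 82.1 RPKM in unfed livers (log2 difference -0.67, SE 0.16, adjusted p = 0.0308). The call of Klf10 was kept only without fed replicate 1 and that of Klf15 only without fed replicate 4, and they reached 0.115 and 0.102 otherwise.

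Of the most abundant genes that passed, the complement factors C9, Hc and C8b rose by 0.65, 0.59 and 0.60 on the log2 scale (adjusted p = 0.0329, 0.0308 and 0.0378). C9 was at 279 to 411 in fed and 209 to 227 RPKM in unfed livers. None of these 3 calls was kept after median-ratio scaling. Without 1 library at a time, C8b was called in none of 8 fits, C9 only without fed replicate 3 and Hc only without fed replicate 3 or 4, at up to 0.115. The esterase gene Ces3a and the acetyltransferase-like gene Nat8f2 rose by 0.52 and 0.43 (adjusted p = 0.0482 and 0.0443), also without a call after that scaling or without any 1 library. Bhmt, which remethylates homocysteine, fell from 276 to 355 RPKM in unfed to 159 to 233 RPKM in fed livers (log2 difference -0.60, adjusted p = 0.0308), a call lost without fed replicate 1 or 2 or unfed replicate 1, 2 or 3 at up to 0.108. Of the 12 most abundant called genes, 3 were called in all 8 fits without 1 library.

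Markers of resident macrophages moved with feeding. Of 10 Kupffer cell markers 4 rose (Cd5l, Adgre1, Timd4 and Csf1r), against 2.55% of all genes tested. The summed level of the 10 was 163 to 172 RPKM in fed and 113 to 118 RPKM in unfed livers, without overlap. Csf1r, the receptor of colony-stimulating factor 1, read 11.6, 11.6, 10.7 and 9.18 RPKM in fed and 5.63 to 6.46 RPKM in unfed livers (log2 difference 0.76, SE 0.18, adjusted p = 0.0262). No marker was called after median-ratio scaling. The count was 6 without fed replicate 4, 1 without fed replicate 3 and 0 without any other library. In bulk tissue fewer cells of a type and less RNA per cell cannot be told apart. Endothelial markers summed to 111 to 123 in fed and 92.6 to 103 RPKM in unfed livers, with 0 of 9 called, and stellate cell markers to 63.0 to 120 and 64.4 to 117 RPKM, with 0 of 8 called. The part of cell makeup in the rises given above was not tested.

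Several pathways had 1 call or none, where 2.55% of all genes tested rose and 0.578% fell. Pdk1, which inhibits pyruvate dehydrogenase, fell as the only call among 20 genes of glycolysis and glycogen (log2 difference -0.63, adjusted p = 0.024), Slc7a2, a carrier of basic amino acids, among 23 of amino acid breakdown (-0.69, adjusted p = 0.0229) and Atg101, a subunit of the ULK1 complex, among 19 of autophagy (-0.54, adjusted p = 0.0378). Each of these lost its call without unfed replicate 1, 2 or 3, among others, at up to 0.0868, 0.0856 and 0.11. The autophagy kinase gene Ulk1 had non-overlapping groups, at 10.3 to 17.5 in fed and 18.6 to 21.3 RPKM in unfed livers, and did not pass in the fit of all livers (adjusted p = 0.103). It was called lower in replicates 1 to 3 alone (log2 difference -0.59, adjusted p = 0.0227) and with a term for replicate 4 (0.0106).

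None of 17 circadian clock genes, 14 CREB-linked and immediate-early genes, 14 bile acid genes or 17 acute-phase genes passed in the fit of all livers. In replicates 1 to 3 alone the clock gene Per2 rose (adjusted p = 0.024), the cholesterol exporter gene Abca1 rose (0.0118) and Cyp8b1, a bile acid enzyme, fell (0.0292). The cytokine feedback inhibitors Socs2 and Cish rose (2.84e-05 and 0.0104) and the interleukin-6 receptor gene Il6ra fell (0.0229) in that fit. A term for replicate 4 gave 1 rise and 1 fall among clock genes, 1 and 1 among acute-phase genes and 1 rise among bile acid genes. The CREB-linked list had no call in any of these fits. Replicates 1 to 3 alone and the term for replicate 4 gave calls in 6.38% and 9.21% of all genes. Among clock genes the log2 difference was -0.30 for Arntl, -0.29 for Cry1, -0.20 for Nr1d1, -0.12 for Dbp, -0.12 for Per3 and 0.22 for Clock (adjusted p from 0.2 to 0.86). In lipid metabolism Acsl1 (acyl-CoA activation), Abcd2 (peroxisomal import), Abcg8 (sterol export) and Agpat2 (phosphatidic acid synthesis) overlapped between groups. Agpat2 varied least, at 75.9 ± 2.7 in fed and 76.6 ± 1.4 RPKM in unfed livers (SD, n = 4; log2 difference -0.01, SE 0.12, adjusted p = 0.969).

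The same meal had been given in the series to lean mice, with no injection in their labels, that had 10 weeks of chow before night-restricted feeding, with 3 fed and 3 unfed livers at ZT14 and 16.8 to 26.3 M reads a poly(A) library. In those mice 1760 genes were called (15.5%). Of the 287 genes that rose in vehicle-injected mice, 254 (88.5%) were also higher in lean mice, where 61.3% of all genes were higher, and 175 were called there. Of the 65 that fell, 61 (93.8%) were also lower and 51 were called. The median log2 difference of the rises was 0.66 in vehicle-injected and 0.57 in lean mice, and that of the falls -0.76 and -1.15.

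The meal effect itself differed between the experiments in 91 of 11331 genes (0.803%; interaction term in limma over 14 libraries), 71 (0.627%) with a more positive and 20 (0.177%) with a more negative difference in vehicle-injected mice. This count ranged from 21 to 328. It was 328 without fed vehicle replicate 4, 59 without fed vehicle replicate 2, and 55, 51 or 43 without unfed vehicle replicate 1, 2 or 3. Among the lean libraries it was 24, 37 or 26 without fed replicate 1, 2 or 3, and 30 or 21 without unfed replicate 2 or 3. Injection, age, prior feeding and depth, among others, differ between the experiments and cannot be told apart.

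Several genes that fell in fed lean mice fell less, or did not pass, in vehicle-injected mice. Pck1 was at 579 to 731 in fed and 1121 to 1472 RPKM in unfed vehicle-injected livers, against 313 to 637 and 2304 to 2498 RPKM in lean livers, and its log2 difference was -1.02 and -2.55 (adjusted p of the interaction 0.022). The unfed vehicle-injected livers were all below the unfed lean livers. Tat differed by -1.08 and -2.00 (adjusted p = 0.0384). Slc7a2 fell by 0.69 on the log2 scale in vehicle-injected mice and by 2.41 in lean mice (adjusted p = 0.00516). Lpin1, a phosphatidate phosphatase and known fasting gene, was at 97.4 to 288 in fed and 199 to 206 RPKM in unfed vehicle-injected livers but at 19.0 to 56.0 and 218 to 258 RPKM in lean livers (log2 differences -0.28 and -2.75, adjusted p = 0.0273). The overlap of the vehicle-injected groups came from the wide spread of their fed livers. Plk3, a stress kinase, differed by -0.01 and -2.08 (adjusted p = 0.0201) and Gm15441, a non-coding transcript, by -0.61 and -2.41 (adjusted p = 0.022).

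Several genes that rose in fed lean mice, Srebf1 and Mid1ip1 among them, rose less in vehicle-injected mice. Srebf1 was at 34.3 to 49.6 in fed vehicle-injected and 94.8 to 125 RPKM in fed lean livers, from unfed levels of 13.8 to 18.4 and 14.2 to 21.7 RPKM (log2 differences 1.27 and 2.60, adjusted p = 0.0196). The unfed levels overlapped and the fed levels did not. Mid1ip1, an activator of acetyl-CoA carboxylase, had log2 differences of 1.16 and 2.87 (adjusted p = 0.0319). Agpat2 did not pass in vehicle-injected mice, whereas in lean mice it went from 82.8 to 93.2 RPKM to 137 to 148 RPKM (log2 differences -0.01 and 0.71, adjusted p = 0.00759). Hdhd3, a phosphatase-like gene, and Id3, an inhibitor of helix-loop-helix factors, also rose less, with log2 differences of 0.72 and 2.25 (adjusted p = 0.0215) and of 1.11 and 2.45 (adjusted p = 0.0483). Nat8, an acetyltransferase, stood at -0.44 and 0.95 (adjusted p = 0.00736).

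Agpat2, Nat8 and Slc7a2 kept the call of the interaction without each of the 14 libraries. Srebf1 kept it in 11 of 14 fits, Hdhd3 and Plk3 in 10, Pck1 in 9, Gm15441 in 8, Lpin1 in 5, Mid1ip1 in 4, Tat in 3 and Id3 in 2. The libraries whose omission ended the call were lean fed replicate 1 or 2 or unfed replicate 3 for Srebf1, and lean fed replicate 1 or 3 or unfed replicate 2 or 3 for Hdhd3, Plk3 and Pck1, with unfed vehicle replicate 3 in addition for Pck1. Gm15441 lost its call without unfed vehicle replicate 3, any lean fed library or lean unfed replicate 2 or 3. Lpin1, Mid1ip1, Tat and Id3 lost it without 9 to 12 of the 14 libraries of both experiments, at an adjusted p of up to 0.134. The difference of Mascrna, a short RNA of 58 bases, rested on 0 to 3 reads a vehicle library and 0 to 4 a lean library.

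Other meal genes were not shown to differ. Igfbp1 had log2 differences of -4.08 and -6.22 (adjusted p of the interaction 0.164, difference 2.14, SE 0.70), Angptl8 of 2.52 and 4.65 (0.146) and Fasn of 0.54 and 1.71 (0.125). All 3 leaned the same way as Pck1 and Srebf1 without passing. The ER chaperones were closer, with Hspa5 at 1.18 and 1.31 (difference -0.14, SE 0.22, adjusted p = 0.826) and Hyou1 at 1.40 and 1.54 (difference -0.14, SE 0.33, adjusted p = 0.885).

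**Figure D5:**
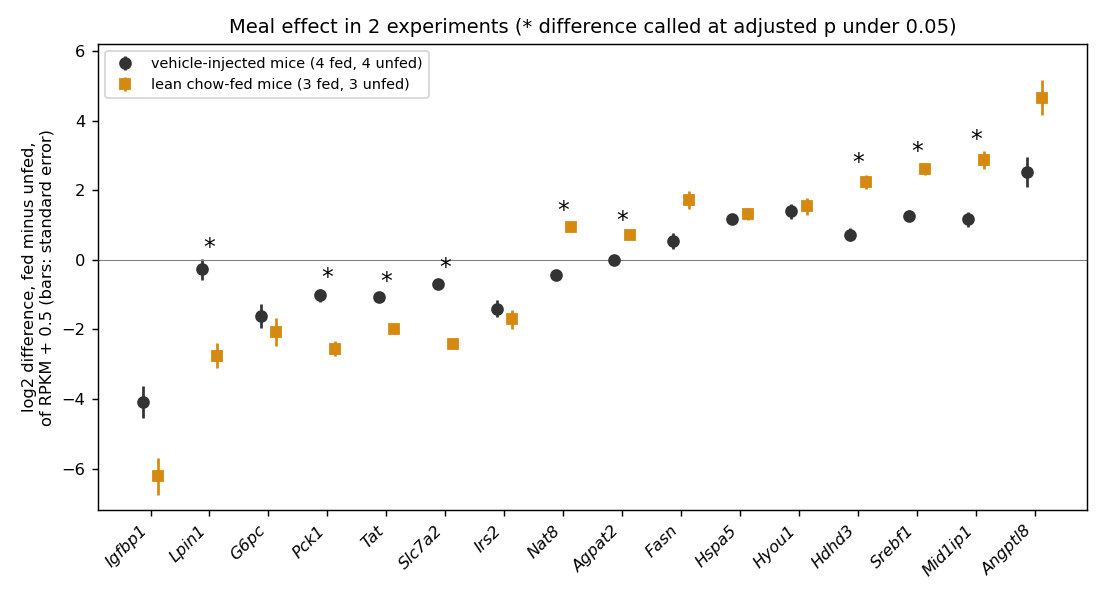
Log2 difference between fed and unfed livers (log2 of RPKM + 0.5, bars for the standard error) in vehicle-injected mice (circles, 4 against 4) and lean mice (squares, 3 against 3) for 16 genes, with a star where the interaction passed at an adjusted p under 0.05. Pck1, Tat, Slc7a2 and Lpin1 lie lower in lean mice, Srebf1, Mid1ip1, Hdhd3, Nat8 and Agpat2 higher, and Hspa5 and Hyou1 close together.

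In uninjected mice under the same night-restricted feeding, with 2 fed and 2 unfed livers and ribosome-depleted RNA at 25.9 to 37.9 M reads, 219 genes were called (1.94%). Of the 287 rises of vehicle-injected mice 262 (91.3%) were also higher there, where 70% of all genes were higher, and of the 65 falls 60 (92.3%) were also lower. Igfbp1 had a log2 difference of -6.35, Pck1 of -2.21, Angptl8 of 3.36, Hspa5 of 1.37 and Hyou1 of 0.95 in uninjected mice. No interaction passed in 11266 genes (0.0%; limma), with 762 at an unadjusted p under 0.05. The count was 35 without uninjected unfed replicate 1 and 35 without fed vehicle replicate 4, and 0 or 1 without any other library. Injection and RNA selection cannot be told apart in this comparison.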

How the data were processed

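The deposited RPKM table held one column for each of 54 libraries and 35707 RefSeq identifiers, of which 35407 had a symbol (24312 symbols). Per the labels the libraries of injected and lean mice were poly(A)-enriched and those of uninjected mice depleted of ribosomal RNA. Per the study's methods the authors aligned reads with STAR to mm9, computed RPKM values and tested with DESeq2. The counting tool and strand setting are not given in the sources used here, so overlapping genes could share reads. GR and FOXO1 peaks were deposited by the authors as positions called with HOMER and concordant between replicates of unfed livers of uninjected mice. The members and gene lists were chosen with earlier results of these data known.

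Each symbol was represented by its identifier with the highest mean. The fit took in all 20 libraries of injected mice and genes averaging 0.5 RPKM or more over them. Its 5 groups, which shared the estimate of spread, were fed and unfed vehicle mice and fed mice given dexamethasone, S961 or both. The fit was made in R 4.3.3 by limma 3.58.1, with a variance trend, on values transformed as log2(RPKM + 0.5), and p-values were adjusted after Benjamini and Hochberg at 0.05. Fold changes on this scale understate those of low genes. Differences from lean or uninjected mice were interaction contrasts over their own libraries. An exact permutation test of 4 against 4 livers cannot go below p = 0.0286, so the fit across all genes was used. Each library came from 1 mouse.

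Named genes were those the study names, the 12 largest rises and falls without overlap at a mean of at least 1 RPKM, the 12 most abundant called genes, up to 5 differences each way and list members. Some of these are not reported here, and they are left out of the list and gene counts. On simulated data of 11251 genes the fit called 45% of genes changed 1.5-fold, 78% of those changed 2-fold and 5 unchanged genes. Depth was read from the smallest steps between RPKM values, and no interval was given for RPKM. Alternatives covered pseudocounts of 0.1 and 1, filters, median-ratio and quantile scaling, a replicate block, a term for replicate 4, subsets of libraries and peak windows. The counts of list members under these settings, and the peak shares of highly expressed genes not called, were added after seeing the data. Motifs were searched with Python 3.11.15 as literal letters on both strands.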

Additional observations from a re-analysis of the deposited data

Results flagged for a closer look

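Of 108 groups of 4 livers tested with Dixon's ratio on RPKM values, 12 had 1 liver far from the other 3, and 10 of the 12 were replicate 4. The cutoff would flag about 1 in 20 independent groups of normally distributed values. All groups came from the same 8 libraries, so that rate cannot be applied to the count. In unfed livers replicate 4 stood apart for Abcg8 (21.5 RPKM), Nr3c1 (12.3 RPKM), Snord34 (1.496 RPKM, 1 read), Sdf2l1 (9.87 RPKM), Hyou1 (31.1 RPKM) and Calr (220.5 RPKM). In fed livers it stood apart for Klf15 (64.1 RPKM), Creld2 (119 RPKM), Hspa5 (578 RPKM) and Calr (391.7 RPKM). The other 2 were fed replicate 1 for Insig2 (65.1 RPKM) and unfed replicate 3 for Bhmt (355 RPKM).

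The meal effect differed from that of lean mice, by the interaction term in limma at an adjusted p under 0.05, for these named genes, given as the log2 difference in vehicle-injected minus that in lean mice. It was more positive in vehicle-injected mice for Mascrna (4.25, on 0 to 4 reads a library), Lpin1 (2.48), Plk3 (2.07), Gm15441 (1.80), Slc7a2 (1.72), Pck1 (1.53) and Tat (0.91). It was more negative for Mid1ip1 (-1.71), Hdhd3 (-1.52), Nat8 (-1.39), Id3 (-1.34), Srebf1 (-1.33) and Agpat2 (-0.72).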

How the results depend on the processing

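The count of 352 genes became 221 after median-ratio scaling, 215 after quantile normalization, 66 at a threshold of 0.01, 716 in replicates 1 to 3 alone and 1036 with a term for replicate 4, and it ranged from 86 to 394 without 1 library. With the 8 vehicle libraries alone it was 275 (2.43%), 230 higher and 45 lower, of which 206 were among the 352. Acss2, Bhmt, Calr, Ces3a, Fasn and G6pc were among the genes that lost their call in that fit. With a replicate block the count was 928 (8.25%). With that block 19 ER folding, 12 ribosome and 3 heat shock genes rose, and Ulk1 was called lower. Deviations of same-numbered fed and unfed livers from their group means correlated at 0.316, 0.195, 0.0461 and 0.507 for replicates 1 to 4. Differently numbered livers gave 0.0172 to 0.217 among replicates 1 to 3. They gave -0.4 to -0.0679 where 1 liver of the pair was replicate 4. As replicate 3 hardly deviated together, the numbers were not taken to pair the mice, and the block was kept as an alternative. The 91 differences from lean mice became 177 with a replicate block and ranged from 21 to 328 without 1 library. The 0 differences from uninjected mice became 3 with a pseudocount of 0.1 and 29 with no filter, and ranged from 0 to 35 without 1 library.

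The share of genes with a GR or FOXO1 peak was 57.2% for rises (40.0% within 20 kb, 74.0% within 100 kb), 96.9% for falls (86.2% within 20 kb, and 100% for calls at 0.01) and 65.3% for genes not called (47.4% and 79.2%).

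Of 1072 values for named genes under the alternatives, 903 kept direction and side of the threshold, 149 lost their call, 4 gained one and 16 changed sign, all of genes not called. Abcd2 became -0.0158 with median-ratio scaling, -0.0854 with quantile normalization and ranged from -0.0787 to 0.246 without 1 library. Acsl1 became -0.0841 with median-ratio scaling and ranged from -0.0385 to 0.075. Irs1 became -0.0646 with median-ratio scaling, -0.1177 with quantile normalization and -0.0332 in replicates 1 to 3 alone, and ranged from -0.0614 to 0.1824. Without 1 library Dbp ranged from -0.343 to 0.1981 and Agpat2 from -0.0364 to 0.0003. The cause of these shifts was not tested. In the simulated data 1.5-fold changes were recovered in 45% of cases. Read depth and a shared shift of replicate 4 were not part of that simulation.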
